A study of Homo sapiens with 6 samples.

Results

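The transcripts of the heterogeneous nuclear ribonucleoproteins (hnRNPs) and of other abundant nuclear RNA-binding proteins were followed as a list of 33 genes named by symbol. All 33 symbols were found among the 22718 rows of the deposited table, as 34 rows, because MATR3 has 2 overlapping entries. All 34 rows were kept by the filter on low counts, among 16084 genes tested. The libraries carry the label HT1197, an established human bladder carcinoma line. They belong to a study of panobinostat, an inhibitor of histone deacetylases, in urothelial carcinoma lines. The vehicle arm (3 libraries, A to C, labelled untreated) spent 48 hours in 1% DMSO, and the panobinostat arm (3 libraries, A to C) spent 48 hours at 2 times the IC50 of the line, the dose of half-maximal inhibition. Dishes of this 1 line were seeded in triplicate, but no label ties a library to its own dish, so the replicate error behind each p-value may be technical only. The question put to the data was which of these transcripts differed after the inhibitor.

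hnRNPs coat nascent transcripts in the nucleus and act in splice site choice, polyadenylation, export and RNA stability. Most have several RNA-binding modules (RNA recognition motifs, quasi-RNA recognition motifs or KH domains) beside glycine- and arginine-rich tails that are methylated on arginine and bound by the import receptor transportin. Many of these genes tune their own transcripts through alternative exons or introns that lead to nonsense-mediated decay, so that members of 1 family can affect one another.

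Library totals ran from 13417898 to 18186087 counts. The Spearman correlation over genes was 0.993 to 0.997 within an arm and 0.941 to 0.950 between arms, and every pair of libraries differed by more than counting noise (the lowest chi-square per gene was 2.64). The bladder label was checked against marker genes, given in CPM (counts scaled by library size and TMM, the trimmed mean of M values). Of 13 luminal urothelial markers 7 had a row, summing to 34.8 to 46.7 CPM with vehicle and 35.5 to 46.6 with panobinostat, most of it from GATA3, with UPK1B and FOXA1 at 0 in the vehicle libraries. Of 7 basal markers 3 had a row, summing to 0.635 to 0.649 CPM with vehicle and 1.07 to 1.57 with panobinostat. Within the luminal list PPARG rose, with a log2 change of 1.31. All 10 adrenergic neuroblast markers had a row and summed to 5051 to 5546 CPM with vehicle and 4059 to 4236 with panobinostat. The 6 fibroblast markers summed to 37.7 to 46.4 CPM with vehicle and 207 to 219 CPM with panobinostat. Most of that rise came from LUM (means of 2.05 and 123 CPM) and COL1A1 (2.58 and 34.2 CPM). COL3A1 stood at 5.60 and 14.8, PDGFRB at 31.1 and 40.4, DCN at 0.117 and 1.83 and COL1A2 at 0.145 and 0.202 CPM. In the same order, 3 leukocyte markers summed to 1.05 to 2.09 and 1.60 to 2.93 CPM, and 3 endothelial markers to 0.936 to 1.30 and 3.43 to 3.75 CPM. The neuroblast sum came mostly from MYCN (2254 CPM), CHGA (1039 CPM) and HAND2 (893 CPM, vehicle means), while most defining urothelial markers were absent from the table or near 0. These markers go against the bladder label, so the identity of the cells is in doubt, and the libraries are called HT1197 by their label only. The part of these marker shifts in the results below was not tested. In bulk libraries, fewer cells of a type and less RNA per cell cannot be told apart.

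The 33 genes were mostly abundant. Levels of different genes are compared here in the deposited FPKM, which divides a count by gene length and by the library's total, with no TMM scaling. Without TMM the median log2 change of all genes lay 0.11 higher. The order of levels depends on the gene lengths used: in mean vehicle CPM HNRNPU (1218) stood above ILF2 (1068). With vehicle, ILF2 stood highest at 449.7 ± 15.1 FPKM (mean ± SD, n = 3), and HNRNPA2B1, at rank 12 of 34, still stood at 100.2 ± 20.2 FPKM. HNRNPAB followed at 189 ± 14.8, NONO at 153 ± 14.9 and HNRNPU at 138 ± 10.3 FPKM. HNRNPU, HNRNPK (129 ± 4.35 FPKM) and SFPQ (127 ± 2.37 FPKM) did not differ beyond their spread, and neither did HNRNPF (108 ± 3.24), HNRNPC (104 ± 4.0), HNRNPH1 (103 ± 4.79) and HNRNPA2B1. At the low end stood HNRNPH3 at 10.2 ± 1.14, HNRNPUL2 at 9.19 ± 0.412 and TAF15 at 7.52 ± 0.828 FPKM. Both MATR3 rows lay near 1 FPKM, at 1.36 ± 0.254 and 1.04 ± 0.0463. These 2 entries cover the same exons in part (42.5% and 90.7% of their exon bases), and the level of MATR3, an inner nuclear matrix protein gene, is therefore uncertain. In the order of levels, HNRNPDL moved from rank 8 with vehicle to rank 12 with panobinostat, EWSR1 from 16 to 20 and SYNCRIP from 19 to 23, while HNRNPH2 moved from 21 to 15.

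**Figure D1:**
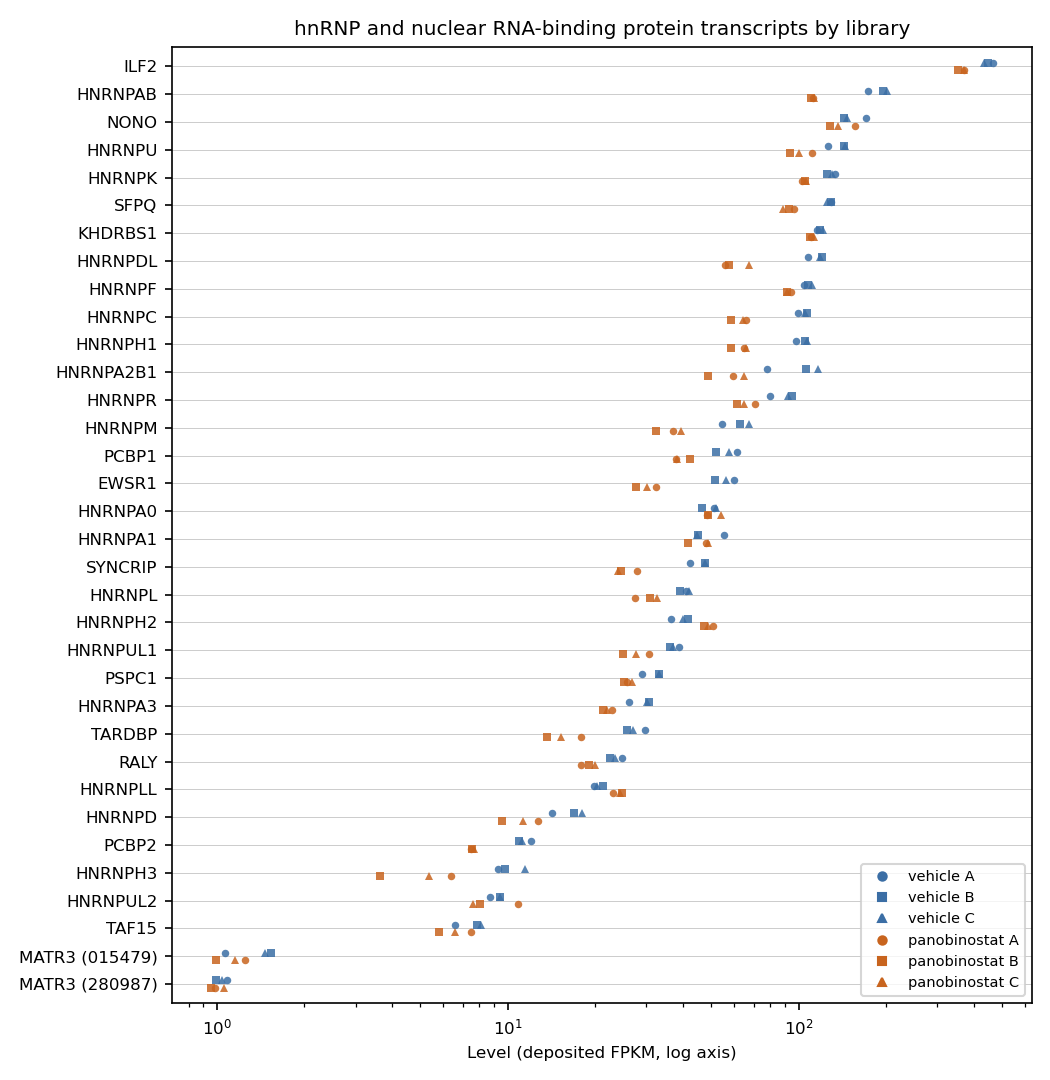
Level of each of the 34 rows in deposited FPKM (log axis) in the 3 vehicle libraries (blue) and the 3 panobinostat libraries (orange), with the letter of the library as the marker shape, ordered by the vehicle mean. Most rows lie to the left with panobinostat, HNRNPH2 and HNRNPLL lie to the right, and ILF2 is the highest in both arms at 450 and 364 FPKM.

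As a group the members went down with panobinostat. Together the 34 rows took 1.32%, 1.36% and 1.39% of all counts in vehicle libraries A, B and C and 1.02%, 0.934% and 1.00% in panobinostat libraries A, B and C. The arms did not overlap, and the means were 1.36 ± 0.0354% and 0.986 ± 0.0458% (SD, n = 3). By edgeR's quasi-likelihood test on counts, at a Benjamini-Hochberg adjusted p of 0.05 over all genes tested, 28 of the 34 rows fell, 1 rose and 5 did not pass. Over all 16084 genes 31.5% fell and 33.7% rose. The balance of the latter depends on scaling: upper quartile scaling, which moved the median log2 change of all genes up by 0.14, gave 3827 falls and 6570 rises against 5066 and 5416. Without the MATR3 rows, a choice made after the data were seen, 27 of 32 members fell, 1 rose and 4 did not pass (HNRNPA0, HNRNPA1, HNRNPLL and HNRNPUL2). The median log2 fold change of the 34 rows was -0.54, with a range of -1.11 to 0.20, against a median of 0.01 over all genes tested. In 27 of the 34 rows every panobinostat library lay below every vehicle library in CPM, which was so for 33.4% of all genes tested. That count includes NONO (lowest vehicle 791.94, highest panobinostat 791.82 CPM) and MATR3 entry ENSG00000280987 (6.90 and 6.86 CPM) by narrow margins. In the deposited FPKM the arms of both overlapped.

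Abundant genes fell more often in these libraries, so the members were also set beside genes of like abundance. Of 25 members with a mean of 100 CPM or more, 22 fell and 3 did not pass, with a median of -0.55. Among all 2472 genes at that level 48.1% fell and 22.7% rose, with a median of -0.17. Of 7 members under 100 CPM, 5 fell and 1 rose, against 28.5% and 35.7% of the 13612 genes there. Falls of at least 2-fold were few: 3 members (HNRNPH3, HNRNPDL and EWSR1) passed that mark, against 5.27% of all genes tested. That count depends on the setting and was 0 to 4 over the alternatives. No member reached 2-fold when scaled by library size only or by the upper quartile (HNRNPH3 had a log2 change of -0.99 and -0.97) or with limma on log2(FPKM + 1), and without panobinostat library B only HNRNPDL did. Of the 28 rows that fell, 24 did so in all 17 alternative settings and the other 4 (KHDRBS1, NONO, TAF15 and MATR3 entry ENSG00000015479) did not.

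**Figure D2:**
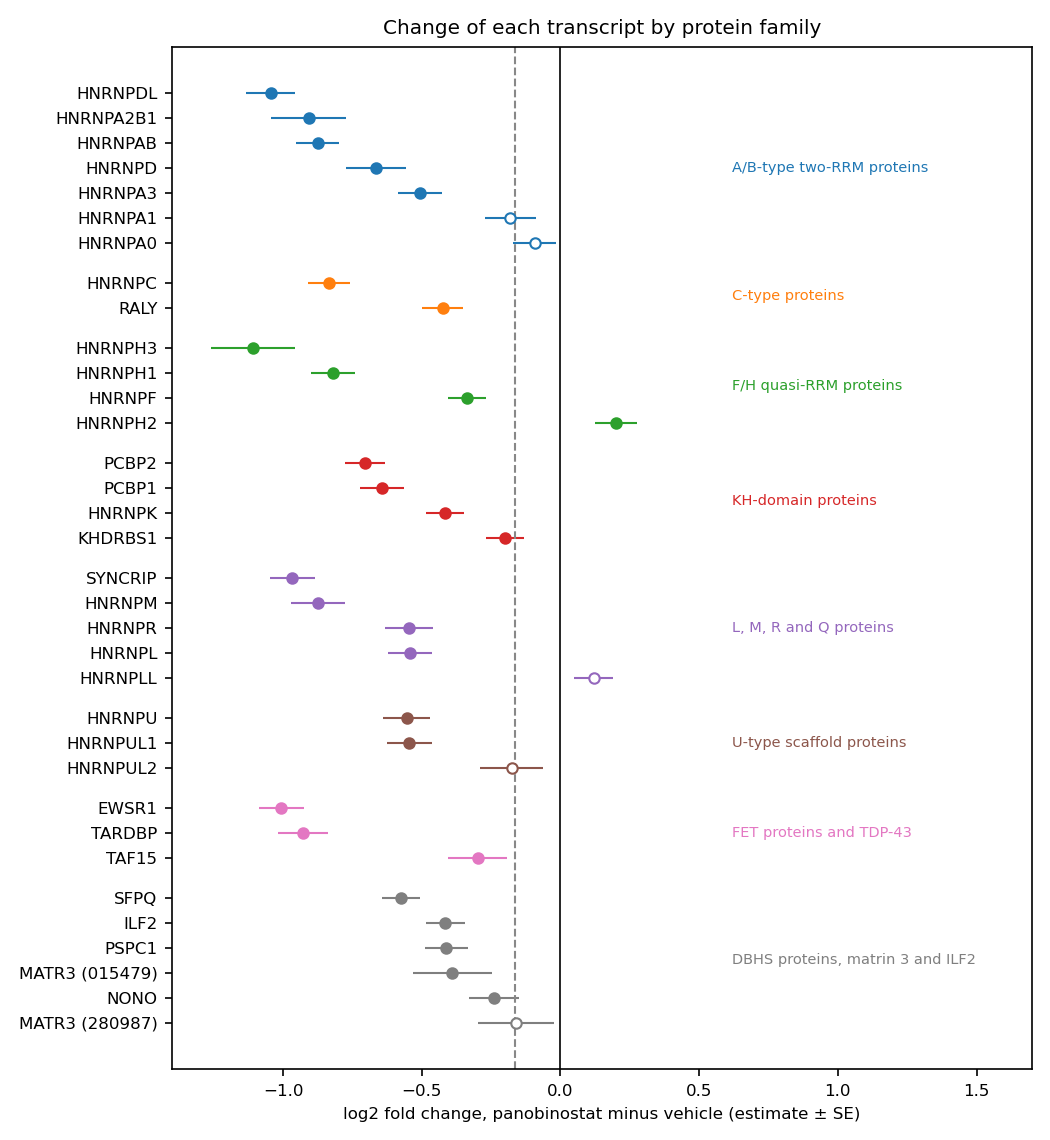
Log2 fold change (panobinostat minus vehicle, estimate ± SE) of each row from edgeR, grouped and coloured by protein family. Filled points passed an adjusted p of 0.05, open points did not, and the dashed line is the median of all genes at 100 CPM or more (-0.17). HNRNPH2 is the only filled point to the right of 0.

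The starts of these genes were examined because so many of them moved together. RefSeq (build GRCh38.p14) gave a start for 30 of the 33, and the 250 bases before each were searched on both strands for 6 motifs, none of which contains another. Members had a median GC content of 65.8% and 24.5 CpG dinucleotides in that window, against 64.4% and 20 over 13139 genes of the table. The palindrome CACGTG, the E-box bound by basic helix-loop-helix leucine zipper proteins such as MYC, MAX and USF, lay in 7 of 30 windows (23.3%) and in 8.49% of all 13139. CCAAT lay in 50% against 35.0%, the GC box GGGCGG in 73.3% against 63.8%, CCGGAAG of ETS factors in 16.7% against 14% and TATAAA in 10.0% against 6.22%. The palindrome of NRF1 lay in 2 member windows (6.67% against 1.77%). These are matches of letters and show no binding. The shares were not set beside those of genes of like abundance or CpG content. In 25 of the 30 windows, and in 6 of the 7 with an E-box, GENCODE 29 places an exon of the same gene, from transcripts that start further upstream, so many windows are not wholly outside the gene. The window of HNRNPH2 holds no exon of its own and overlaps an exon of GLA. The 30 bases around each E-box are printed because this motif, of those found in 3 or more members, had the highest share in members relative to all genes. They read 5′ to 3′ on the strand of the gene, with CACGTG in capitals.
HNRNPA3, chr2:177212711-177212740, plus strand: cggaaaacgcgtCACGTGacgactggcccc
HNRNPD, chr4:82374001-82374030, minus strand: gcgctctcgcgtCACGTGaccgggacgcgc
HNRNPDL, chr4:82430364-82430393, minus strand: agaggcccggggCACGTGcagaaaggagcc
HNRNPH2, chrX:101408168-101408197, plus strand: ccgagagttgctCACGTGaccgagatctca
HNRNPH2, chrX:101408192-101408221, plus strand: atctcacatgacgtaggcgctCACGTGatt
HNRNPH3, chr10:68331631-68331660, plus strand: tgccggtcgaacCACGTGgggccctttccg
HNRNPM, chr19:8444921-8444950, plus strand: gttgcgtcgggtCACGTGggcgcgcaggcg
KHDRBS1, chr1:32013618-32013647, plus strand: gaCACGTGttccgctagcgccgagtcacgt
KHDRBS1, chr1:32013631-32013660, plus strand: ctagcgccgagtCACGTGgaaaacgaaacg
Of the 7 genes that hold an E-box, 6 fell and 1 rose (HNRNPH2), with a median log2 change of -0.66. Of 22 others with a window, MATR3 left out, 19 fell and 3 did not pass, with a median of -0.55. HNRNPH2, which holds 2 of these sites at 9 and 42 bases before its start, was the member that rose, a call lost in 7 of 17 alternatives. KHDRBS1, which also holds 2, at 225 and 248 bases before its start, fell, a call lost in 8 of 17. A link between these sites and the direction of change was not tested. The window of EWSR1, which fell, holds none of these 6 motifs. Nor do the 250 bases before HNRNPH1, the close relative of HNRNPH2 that fell, which hold only 8 CpG dinucleotides. They also hold no exon annotated in GENCODE 29. They are shown for comparison, from chr5:179634785-179635034 on the minus strand.
HNRNPH1: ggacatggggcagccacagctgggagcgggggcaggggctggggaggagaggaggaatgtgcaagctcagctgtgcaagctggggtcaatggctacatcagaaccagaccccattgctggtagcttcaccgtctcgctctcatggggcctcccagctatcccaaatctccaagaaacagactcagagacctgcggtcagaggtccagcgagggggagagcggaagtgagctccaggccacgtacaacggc

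Of the 7 A/B-type proteins, which carry a pair of RNA recognition motifs, 5 fell. HNRNPDL (ENSG00000152795, chromosome 4, 82422564 to 82430408 on GRCh38, as all gene positions here), an AU-rich element binding protein that regulates its own splicing, stood at 607, 691 and 677 CPM in vehicle libraries A, B and C and at 294, 304 and 359.8 CPM in panobinostat libraries A, B and C. The arms lay far apart, and HNRNPDL fell by 1.05 ± 0.09 on the log2 scale (estimate ± SE, adjusted p = 9.96e-08), to 48.5% of its vehicle level. HNRNPD, which encodes the RNA decay factor AUF1 and lies near HNRNPDL on chromosome 4, stood at 103, 124 and 131 CPM with vehicle and 85.1, 64.1 and 76.7 CPM with panobinostat in the same order, and fell by 0.66 ± 0.11. HNRNPAB fell from 385, 440.5 and 453 CPM to 232, 228 and 237 CPM, with treated libraries that varied by 4.63 CPM (SD) only. HNRNPA2B1, a regulator of exon skipping and RNA transport, stood at 603, 839.6 and 919 CPM with vehicle and 429, 354 and 476 CPM with panobinostat. Vehicle library A was well below vehicle B and C but still above every treated library. HNRNPA2B1 fell by 0.91 ± 0.13 (adjusted p = 2.99e-05), and HNRNPA3 fell by 0.51 ± 0.08.

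HNRNPA1 and HNRNPA0 did not pass. HNRNPA1, a splicing repressor that shuttles between nucleus and cytoplasm, stood at 291, 240.5 and 239 CPM with vehicle and 234, 203 and 243 CPM with panobinostat. The arms overlapped, since panobinostat library C exceeded vehicle libraries B and C, and the log2 change was -0.18 ± 0.09 (adjusted p = 0.0971). With no filter on low counts it passed (adjusted p = 0.0490). HNRNPA1 has many processed copies in the genome: 22.8% of the 50-base stretches of its transcripts also occur in transcripts of 57 other genes, 54 of them pseudogenes. The table holds 48 rows named as HNRNPA1 copies, and their counts together came to 7.68% of those of HNRNPA1, so its level is uncertain. HNRNPA3 shares 16.5% of such stretches with other genes. HNRNPA0, an intronless gene, had a log2 change of -0.09 ± 0.08, and the sign turned when scaled by library size only (0.019), with upper quartile scaling (0.045) and with limma on FPKM (0.017).

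HNRNPC and RALY, the C-type proteins that bind uridine tracts, both fell. HNRNPC, which packages long nascent transcripts and masks cryptic exons, stood at 748, 819 and 801 CPM with vehicle and at 460.5, 411 and 457 CPM with panobinostat. Replicates lay close in both arms, and HNRNPC fell by 0.83 ± 0.08 (adjusted p = 2.08e-07). RALY was lower in level and fell by 0.42 ± 0.07, from 184 ± 6.97 to 137 ± 8.76 CPM (mean ± SD, n = 3).

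The F/H proteins, which bind runs of guanines through quasi-RNA recognition motifs, went separate ways. HNRNPH1 (ENSG00000169045, chromosome 5, 179614178 to 179634784) stood at 955, 1046 and 1056 CPM with vehicle and 589.6, 532 and 611 CPM with panobinostat, and fell by 0.82 ± 0.08 (adjusted p = 3.53e-07). HNRNPH2 (ENSG00000126945, chromosome X, 101408295 to 101414133) stood at 83.7, 96.7 and 93.0 CPM with vehicle and 108, 100.4 and 105 CPM with panobinostat. Every treated library exceeded every vehicle library, but narrowly, and HNRNPH2 rose by 0.20 ± 0.08 (adjusted p = 0.0308). That rise did not pass with DESeq2 (adjusted p = 0.0787), with no filter (0.0927), or when either library A or either library C was left out (0.0623 to 0.114), and 16.3% of its exon bases overlap a readthrough gene, RPL36A-HNRNPH2. HNRNPH3, a shorter relative, had one of the largest falls of the list, which differed from that of HNRNPDL by less than its SE. It stood at 51.4, 55.2 and 64.3 CPM with vehicle and 33, 18.7 and 28.0 CPM with panobinostat, a fall of 1.11 ± 0.15 (adjusted p = 1.39e-05). Its treated libraries spread widely, B being the lowest, and none reached the vehicle range. HNRNPF changed least among the falls of this family, by 0.34 ± 0.07, from 365 ± 13.6 to 289 ± 4.10 CPM.

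All 4 KH-domain proteins fell. PCBP1 and PCBP2, the poly(C)-binding proteins that stabilise messenger RNAs such as that of alpha-globin, moved side by side. PCBP1, an intronless gene, went from 111, 95.4 and 106 CPM to 63.7, 70.8 and 65.4 CPM and fell by 0.64 ± 0.08. PCBP2 went from 98.0, 90.7 and 93.1 CPM to 56.7, 57.1 and 59.1 CPM and fell by 0.70 ± 0.07. HNRNPK, which binds cytidine-rich RNA and DNA, fell by 0.42 ± 0.07, from 689 ± 18.6 to 516 ± 13.4 CPM. KHDRBS1, which encodes the signalling-responsive splicing regulator Sam68, fell by 0.20 ± 0.07 (adjusted p = 0.019). That fall was lost when scaled by library size only (-0.086), with upper quartile scaling (-0.060) and with limma on FPKM, and without vehicle library C or panobinostat library B.

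Of the L, M, R and Q proteins 4 of 5 fell. SYNCRIP (hnRNP Q, ENSG00000135316, chromosome 6, 85607785 to 85643792), which binds messenger RNAs in transport and translation, stood at 358, 410.0 and 407 CPM with vehicle and 218, 192 and 192 CPM with panobinostat. The arms were well separated, and SYNCRIP fell by 0.97 ± 0.08 (adjusted p = 9.5e-08). HNRNPR, its closest relative, fell less, by 0.55 ± 0.09, from 802 ± 79.2 to 549 ± 37.7 CPM. HNRNPM, a splicing regulator that binds GU-rich RNA, went from 315, 369 and 395 CPM to 199, 174 and 216 CPM and fell by 0.87 ± 0.10. HNRNPL, which binds CA repeats, fell by 0.54 ± 0.08. HNRNPLL, its paralog known for the splicing of CD45 in lymphocytes, went the other way without passing: it stood at 121, 132 and 125 CPM with vehicle and 130.2, 141 and 140.0 CPM with panobinostat. Its log2 change was 0.12 ± 0.07 (adjusted p = 0.15), and it passed as a rise with library size alone (0.23), upper quartile scaling (0.26) and limma on FPKM (0.22 to 0.23).

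Of the U-type proteins, HNRNPU and HNRNPUL1 fell and HNRNPUL2 did not pass. HNRNPU, the scaffold attachment factor that holds RNA on chromatin, was among the most counted members, at 1102, 1271 and 1282 CPM with vehicle and 902, 758 and 828 CPM with panobinostat, and fell by 0.55 ± 0.09. HNRNPUL1 fell by 0.55 ± 0.08. HNRNPUL2 stood at 47.5, 52.2 and 52.2 CPM with vehicle and 55.2, 40.6 and 39.3 CPM with panobinostat. Panobinostat library A lay above all vehicle libraries while B and C lay below them. The log2 change was -0.18 ± 0.11 (adjusted p = 0.186), and without that library HNRNPUL2 fell by 0.34 (adjusted p = 0.00213). Its exons overlap those of the readthrough gene HNRNPUL2-BSCL2 over 44.1% of their bases.

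The FET proteins and TDP-43, which carry low-complexity domains and are mutated or mislocalised in motor neuron disease, held some of the larger falls. EWSR1 (ENSG00000182944, chromosome 22, 29268009 to 29300525), the FET gene rearranged in Ewing sarcoma, stood at 637, 557 and 605 CPM with vehicle and 320.0, 273 and 302 CPM with panobinostat. The treated libraries lay far below the vehicle range, and EWSR1 fell by 1.01 ± 0.08 (adjusted p = 6.46e-08), to 49.8% of its vehicle level. TARDBP, which encodes TDP-43, a UG-repeat binding repressor of cryptic exons, went from 185, 164 and 171 CPM to 104, 79.4 and 90.2 CPM and fell by 0.93 ± 0.09. An overlapping gene model covers 29% of its exon bases, so a part of its reads is uncertain. TAF15 was the lowest of these genes and changed least, from 40.0, 48.6 and 50.2 CPM to 42.5, 32.9 and 37.8 CPM. Its arms overlapped at panobinostat library A, and its fall of 0.30 ± 0.11 (adjusted p = 0.0237) was lost when scaled by library size only, with upper quartile scaling, with limma on FPKM, or when either library B or either library C was left out.

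The paraspeckle proteins SFPQ, NONO and PSPC1, which assemble with one another on the long noncoding RNA NEAT1, fell to unequal extents. SFPQ stood at 986, 1001 and 968 CPM with vehicle and 685, 658 and 639.8 CPM with panobinostat and fell by 0.58 ± 0.07 (adjusted p = 3.8e-06). NONO stood at 929, 791.9 and 812 CPM with vehicle and 791.8, 649 and 705 CPM with panobinostat, where library A was the highest of each arm. Its fall of 0.24 ± 0.09 (adjusted p = 0.0271) was lost when scaled by library size only (-0.13), with upper quartile scaling (-0.10), with limma on FPKM or with a filter at 1 CPM, and when vehicle A, panobinostat B or panobinostat C was left out. PSPC1 fell by 0.41 ± 0.08. ILF2 (ENSG00000143621, chromosome 1, 153661788 to 153671048), which encodes the RNA-binding complex subunit NF45, went from 1094, 1072 and 1037 CPM to 808, 770.0 and 824 CPM and fell by 0.41 ± 0.07. Of the MATR3 entries, ENSG00000015479 went from 13, 19.0 and 18.1 CPM to 14.1, 11.2 and 13.2 CPM and fell by 0.39 ± 0.14 (adjusted p = 0.0259), a call lost in 9 of 17 alternatives. The other entry had a log2 change of -0.16 ± 0.14 (adjusted p = 0.317).

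Because relatives can stand in for one another, the ratio of 12 pairs of members was taken within each library, on the log2 scale of FPKM, where the library's scaling cancels. In 10 of 12 pairs the arms did not overlap. Separate arms were common among single genes too (33.4% of all genes tested lay wholly lower with panobinostat and 35.5% wholly higher), and a share over other pairs was not computed, so the count describes these pairs only. The exact permutation test over libraries (two-sided, 3 against 3) cannot go below p = 0.1, which all 10 reached (0.12 adjusted over the 12 pairs). HNRNPH1 to HNRNPH2 moved most, from ratios of 2.68, 2.54 and 2.66 in vehicle libraries A, B and C to 1.27, 1.24 and 1.36 with panobinostat, or from 1.39 ± 0.04 to 0.37 ± 0.07 on the log2 scale. HNRNPL to HNRNPLL went from 1.00 ± 0.10 to 0.33 ± 0.09, and HNRNPH1 to HNRNPF from -0.06 ± 0.03 to -0.55 ± 0.09. On the FPKM scale HNRNPH1 and HNRNPH2, and HNRNPL and HNRNPLL, thus came nearer to equal levels. How near depends on the gene lengths used: annotated exons cover 9480 bases for HNRNPH1 and 2223 for HNRNPH2. In mean CPM HNRNPH1 went from 1019 to 577 and HNRNPH2 from 91.1 to 105, so HNRNPH1 stayed far higher. EWSR1 to TAF15 went from 2.90 ± 0.25 to 2.18 ± 0.07, HNRNPC to RALY from 2.14 ± 0.12 to 1.73 ± 0.14 and HNRNPUL1 to HNRNPUL2 from 2.02 ± 0.12 to 1.66 ± 0.18. HNRNPA1 to HNRNPA2B1 went from -1.03 ± 0.48 to -0.32 ± 0.09, with vehicle library A (-0.49) closest to the treated range. HNRNPD to HNRNPDL, HNRNPR to SYNCRIP and SFPQ to NONO differed by 0.39, 0.42 and -0.34. Arms overlapped for PCBP1 to PCBP2, at 2.33 ± 0.06 and 2.39 ± 0.09 (exact permutation p = 0.6, adjusted 0.6), and for NONO to PSPC1 (exact permutation p = 0.3, adjusted 0.327).

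**Figure D3:**
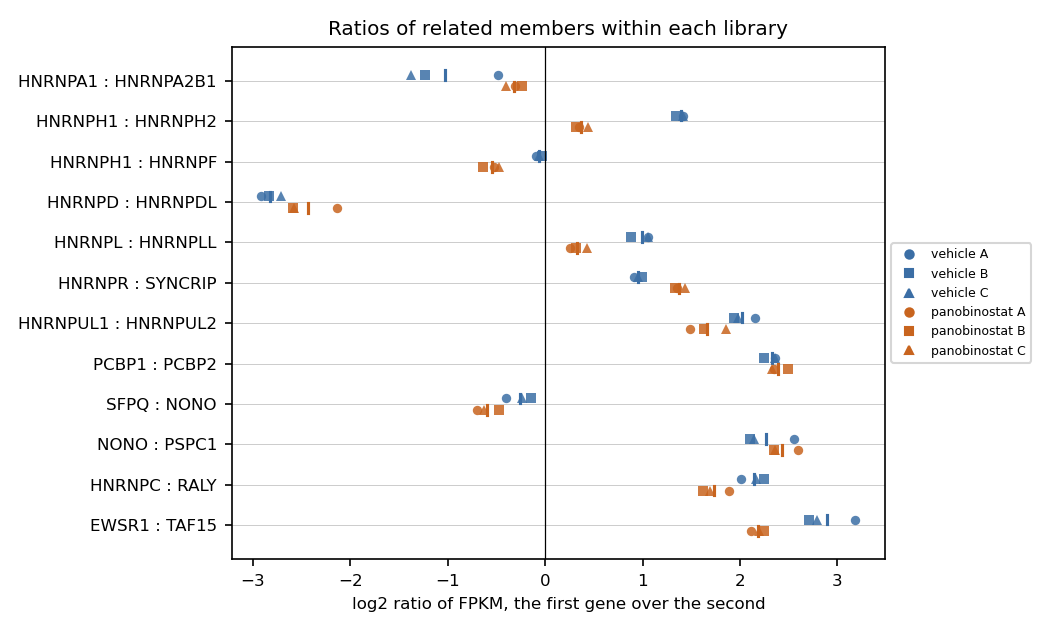
Log2 ratio of FPKM, the first gene over the second, for 12 pairs of members in the 3 vehicle libraries (blue) and the 3 panobinostat libraries (orange), with short vertical bars at the arm means. HNRNPH1 to HNRNPH2 shows the widest gap between arms (1.39 and 0.37), and PCBP1 to PCBP2 overlaps.

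Genes that work beside the members were read from lists of related genes in the same fit. Of 29 other nuclear RNA-binding proteins 23 fell and 3 rose, with a median log2 change of -0.56. Over all genes tested 31.5% fell and 33.7% rose, and among genes at 100 CPM or more 48.1% and 22.7%. RBM3, the cold-inducible RNA-binding protein, stood at 259.8, 305 and 299 CPM with vehicle and 88.3, 103 and 111 CPM with panobinostat, and fell by 1.52 ± 0.09 (adjusted p = 3.32e-09). RBM14, a paraspeckle protein, fell by 1.08 ± 0.12, and TIA1, a stress granule and splicing protein, by 1.01 ± 0.08. PTBP1, the polypyrimidine tract binding protein, fell by 0.78 ± 0.07 and RBMX (hnRNP G) by 0.41 ± 0.07. The 3 that rose, named after their values were seen, were PTBP3 (0.34 ± 0.09), KHDRBS3 (0.43 ± 0.07) and RALYL (0.87 ± 0.14), relatives of PTBP1, KHDRBS1 and RALY.

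Of 12 nuclear import and export genes 11 fell and KPNA2, an importin alpha, did not pass (0.11 ± 0.07). Of all genes tested 31.5% fell, and of those at 100 CPM or more 48.1%. TNPO1, the transportin that carries hnRNP A1 into the nucleus, stood at 663, 738 and 735 CPM with vehicle and 453, 436 and 453 CPM with panobinostat, and fell by 0.67 ± 0.07. TNPO2 fell by 0.63 ± 0.08, KPNB1 (importin beta) by 0.81 ± 0.07 and RCC1, the exchange factor of RAN, by 1.07 ± 0.07. A list of 9 genes held protein arginine methyltransferases and 1 partner protein, WDR77. Of these 9 genes 6 fell and 1 rose, against 31.5% and 33.7% of all genes tested. PRMT1, which methylates hnRNP tails, went from 497, 466 and 477 CPM to 245, 265 and 260.5 CPM and fell by 0.90 ± 0.07. PRMT7 fell by 0.97 ± 0.09, CARM1 by 0.95 ± 0.07 and WDR77, the partner of PRMT5, by 0.51 ± 0.11, while PRMT3 rose by 0.38 ± 0.07 (named after its value was seen).

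Of 10 nonsense-mediated decay factors 8 fell and 2 did not pass, where 31.5% of all genes tested fell. The helicase gene UPF1 fell by 0.59 ± 0.07, from 131 ± 7.15 to 87.0 ± 3.68 CPM, UPF3A by 0.76 ± 0.09 and UPF3B by 0.72 ± 0.12. SMG9 and SMG8, which bind the kinase SMG1, fell by 1.05 ± 0.14 and 0.88 ± 0.08, and SMG1 itself did not pass (-0.04 ± 0.12). Among 6 nuclear noncoding RNAs and factors of 3′ end formation, 3 fell and 2 rose, against 31.5% and 33.7% of all genes tested. The cleavage factor genes CPSF7, NUDT21 and CSTF2 fell by 1.04 ± 0.09, 0.53 ± 0.07 and 0.77 ± 0.09, and CPSF6 did not pass (-0.14 ± 0.07). MALAT1, a noncoding RNA of nuclear speckles, stood at 236, 274 and 304 CPM with vehicle and 1068, 618 and 733 CPM with panobinostat and rose by 1.57 ± 0.16 (adjusted p = 5.18e-07), with panobinostat library A well above B and C. NEAT1, the scaffold of paraspeckles, rose by 1.82 ± 0.34 from a very low level, 21 counts over the vehicle libraries and 77 over the treated ones. With limma on FPKM and no filter NEAT1 did not pass (adjusted p = 0.0731).

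**Figure D4:**
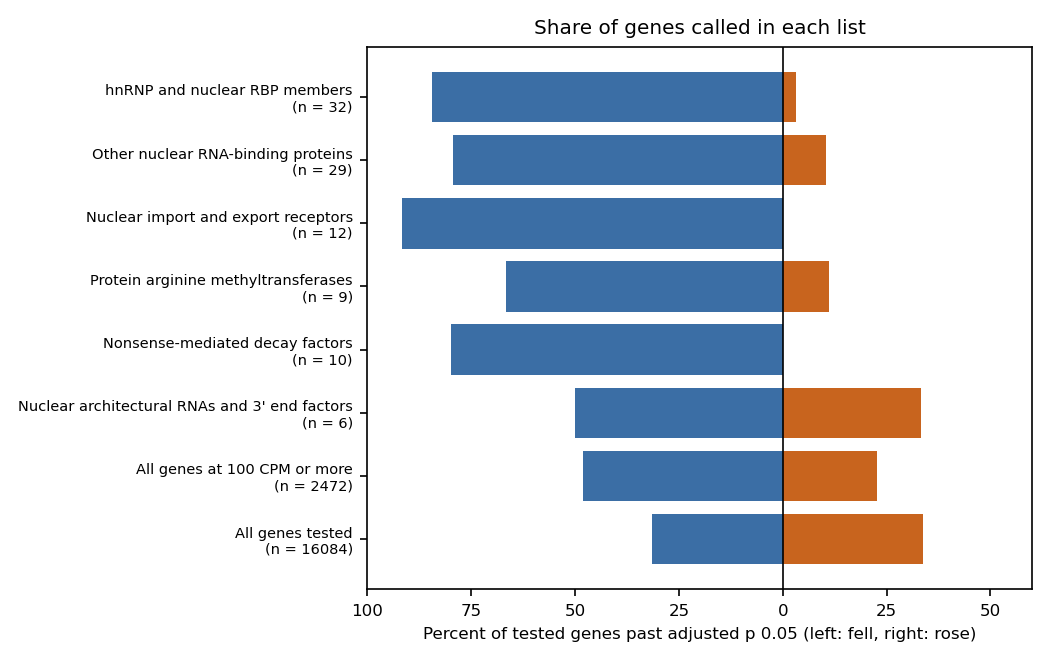
Share of tested genes past an adjusted p of 0.05 that fell (blue, to the left) or rose (orange, to the right). Bars show the 32 members other than MATR3, 5 lists of related genes, all genes at 100 CPM or more and all genes tested, with n in brackets. Of the members 84.4% fell and 3.13% rose, against 31.5% and 33.7% of all genes tested. Among all genes at 100 CPM or more 48.1% fell and 22.7% rose.

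Vehicle library A was the lowest of its arm for 19 of the 32 members other than MATR3 and the highest for 10, where over all genes tested it was lowest for 38.9% and highest for 40.6%. Panobinostat library B was the lowest of its arm for 21 members and the highest for 2, against 29.7% and 28.2% of all genes tested. The highest treated library was A for 16 members and C for 14, against 39.4% and 32.5% of all genes tested. Left out 1 at a time, the 6 libraries gave 24 to 29 rows that fell and 0 to 1 that rose.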

How the data were processed

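The counts per gene in the deposited table were made by the authors with featureCounts, version 1.5.0-p3 per the file headers and 1.5.1 per the submitters' processing notes, where Novoalign 2.8, Subread and hg38 are listed too. The header's command counted strand-specifically (option 2) against Ensembl 84 with ties settled by largest overlap. It names 9 alignments; 6 are columns here, and the others were not analysed here. The deposited FPKM values were also made by the authors. In all 53265 values checked with 100 counts or more, FPKM lay within 1% of the count divided by gene length and column total, so both are 1 measurement. Member counts ran from 88 in a MATR3 entry to 22199 in HNRNPU per library, and only the replicate error is given.

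Samples were grouped by the labels. Genes were kept by edgeR's filterByExpr (version 4.0.16, R 4.3.3; count 10, total 15 at least), TMM factors were applied, and the arms were compared by the quasi-likelihood test without covariates. Benjamini-Hochberg adjustment ran over all 16084 genes. CPM are TMM-scaled. Each SE was derived from the fold change and the F statistic (size over square root of F). The steps were tested on simulated data in which 200 genes were changed. They recovered 66.7% of 1.5-fold, 84.5% of 2-fold and 100% of 4-fold changes, with 12 false calls. Far more genes were called in the real data, so the simulation does not test the scaling there. Symbols came from a separate list of gene names by Ensembl identifier. Positions came from GENCODE 29, a release other than that used for counting, and start sequences from RefSeq GRCh38.p14. Where the counting could split reads between copies or overlapping genes, the share of exon bases or 50-base stretches is given.

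All 33 members are accounted for. The rule for named genes takes, per related list, the 4 called genes that changed most among those at a mean of at least 10 CPM, and a fixed set that includes RBMX, PTBP1, TNPO1, PRMT1, UPF1, NEAT1 and MALAT1. Some genes that the rule takes are not reported here. The members and lists were chosen with earlier results of these data known, so the counts are a description of these genes. Alternatives were DESeq2 1.42.0, other scalings and filters, an adjusted p of 0.01, the letter as a block, each library left out, and limma 3.58.1 on log2(FPKM + 1) and log2(FPKM + 0.1).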

Additional observations from a re-analysis of the deposited data

How the results depend on the processing

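The number of the 34 rows that fell (28) was 24 to 29 over the 17 alternatives and 27 of 32 without the MATR3 rows. The number that rose (1) was 0 with DESeq2, with no low count filter and at an adjusted p of 0.01, and 2 with library size alone, upper quartile scaling and each limma fit on FPKM. With 1 library left out, 24 to 29 rows fell and 0 to 1 rose. The sign of HNRNPA0, which did not pass, turned to 0.019 with library size alone, 0.045 with upper quartile scaling and 0.017 in each of the 3 limma fits. With the letter as a replicate block 28 rows fell and 1 rose, and over all genes 5109 fell and 5432 rose. The letters are not said to pair the libraries, and deviations of same-letter libraries correlated at 0.07, -0.02 and 0.09 for A, B and C, so no pairing was assumed. Of the 25 related genes named by rule, 24 kept their call in all alternatives, NEAT1 being the exception. Counts limit the MATR3 entries (88 to 325 counts a library) and NEAT1. The falls of KHDRBS1, NONO and TAF15, each of 0.30 or less on the log2 scale, did not hold across scalings and single libraries.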

Other observations

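Some rows that neighbour, overlap, copy or are related to the members, chosen after their values were seen, passed the test, in either direction. PCBP1-AS1, on the strand opposite PCBP1, rose by 0.56 ± 0.10 on the log2 scale, from 17.8 ± 1.76 to 26.2 ± 0.854 CPM (mean ± SD, n = 3), while PCBP1 fell. The counting used strand, per the file headers. HNRNPD-DT, divergent from HNRNPD, rose by 0.79 ± 0.27 from 29 counts or fewer in each library. PCBP3, a relative of PCBP1 and PCBP2 on chromosome 21, rose by 0.80 ± 0.12, from 9.67 ± 0.269 to 16.9 ± 1.79 CPM, as PCBP1 and PCBP2 fell. HNRNPKP4, a processed copy of HNRNPK, fell by 0.58 ± 0.13, like HNRNPK itself, and the 2 can share reads. Among other copies, HNRNPA1L2 fell by 0.47 ± 0.17 and HNRNPUP1 by 0.88 ± 0.36. HNRNPUL2-BSCL2, the readthrough gene that overlaps HNRNPUL2, rose by 0.94 ± 0.32 from 29 counts or fewer in each library. In all, 70 rows were named as copies of 12 members and held 4685 counts over the 6 libraries.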
